A study of Mus musculus with 15 samples.

Results

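Retained-intron transcripts are spliced RNAs that still carry all or part of an intron removed from the coding transcripts of the same gene. The transcripts described here are the rows of the deposited transcript table that GENCODE M21 annotates as retained_intron, that had 50 or more counts summed over the 15 libraries, and that lie in protein-coding genes with a mean gene count of 100 or more. They numbered 10063 of the 141862 transcripts of the table matched to GENCODE M21, and of the 21848 retained-intron transcripts among them, and they lay in 4960 of 55536 genes. The measured quantity was each transcript's share of its gene's estimated counts in a library, in percent.

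The study used RNA sequencing to compare CD8+ T cells from OT-I mice, whose T cells carry a transgenic receptor for the SIINFEKL peptide of ovalbumin, in 3 groups of 5 libraries. Naive libraries came from OT-I mice whose cells were not transferred. For the Ag group, OT-I cells were moved into C57BL/6J recipients given the peptide and a rat IgG control antibody, and for the Ag+Costim group the recipients were given the peptide and agonist antibodies to the costimulatory receptors OX40 (CD134) and 41BB (CD137). Transferred cells were collected from spleen and lymph nodes 4 days later by the labels and sorted. By the study's methods the OT-I donors lacked Rag1 or Rag2, so that these T cells carried only the transgenic receptor, and the recipients kept their own T cells. The Naive cells differed from both other groups in transfer as well as in antigen, and these cannot be told apart, and the ages of the mice are not given in the labels. The labels do not say whether the 5 libraries of a group came from separate animals, so p-values measure the spread between these samples.

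Introns are removed by the spliceosome, which recognises a donor site at the start of the intron and an acceptor site at its end. A polyadenylated RNA that keeps an intron is often held in the nucleus or, once exported, degraded by nonsense-mediated decay, so that it usually yields little protein. SR proteins, hnRNPs and other RNA-binding proteins that help to choose splice sites are themselves known for retained introns and related unproductive exons in their own transcripts, and resting lymphocytes are known for widespread intron retention.

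The splice sites of 8 members that span a whole coding intron are shown, 6 because their share passed the log2 odds test below, Drap1-206 for its donor and Cd8a-203 because it is the marker gene of these cells. They were read from GENCODE M21 transcripts (GRCm38, the build also named mm10) on the strand of the gene, 5′ to 3′. Each donor window holds the last 3 exon bases and the first 12 intron bases, each acceptor window the last 18 intron bases and the first 3 exon bases, and capitals mark the 2 bases at each end of the intron.
Colgalt1-203 donor: gagGTaggtgtctgg
Colgalt1-203 acceptor: agtggctccttccctcAGgtg
Cdv3-206 donor: aagGTctgtgtcact
Cdv3-206 acceptor: gtgttgtttcttccatAGgat
Tmed1-203 donor: cacGTgagtgaagtc
Tmed1-203 acceptor: tctcatctgtctgcccAGggt
Top3b-217 donor: tagGTgctgttccct
Top3b-217 acceptor: tctttctcaaccctttAGgtt
Hdac5-216 donor: aagGTgagccagggg
Hdac5-216 acceptor: cgcccgcacccaccgcAGcag
Tnrc6a-208 donor: cagGTaagtccagat
Tnrc6a-208 acceptor: ttgttgtttgttttttAGaat
Drap1-206 donor: tctGTatcctactag
Drap1-206 acceptor: tctccttgacgtcttcAGccc
Cd8a-203 donor: aagGTttggaagtgg
Cd8a-203 acceptor: accctattgcttttgcAGtga
The retained introns were chr8:71621897-71622702 for Colgalt1-203 (intron 9 of 11 of the coding transcript), chr9:103364052-103364462 for Cdv3-206 (1 of 4), chr9:21509115-21509253 for Tmed1-203 (2 of 3) and chr16:16882698-16883406 for Top3b-217 (7 of 18). Those of the others were chr11:102206775-102206906 for Hdac5-216 (6 of 28), chr7:123180396-123180539 for Tnrc6a-208 (8 of 19), chr19:5424276-5424360 for Drap1-206 (2 of 6) and chr6:71373998-71374502 for Cd8a-203 (1 of 4). All 8 introns begin with GT and end with AG. The donor of Drap1-206 reads GTATCC, the letters found at many donors of the minor spliceosome. Among the 3787 members that span a whole coding intron, 98.2% of the introns began with GT and ended with AG, 52 began with GC and ended with AG, and 10 began with AT and ended with AC. ATATCC or GTATCC opened 39 of these introns (1.03%).

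Of the 10063 members, 3787 (37.6%) spanned at least 1 whole intron of a coding transcript, 6235 (62.0%) covered part of one, and 41 (0.407%) covered no base of one. Introns under 50 bases were not considered. The median member had 1417 bases and 3 exons, and 1321 members were single exons. Whole retained introns were short, with a median of 344 bases against 1285 bases for the 74278 introns of the coding transcripts of the same genes. Introns under 200 bases made up 34.2% of the retained and 14.3% of the coding introns. The gene with the most members was Aup1, with 12, and 2334 genes held 1 member each. Members of 1 gene share its reads, and the authors' counting split them by estimate, so members of a gene are not independent measurements.

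Most members were minor products of their genes. The median member took 2.15% of its gene's counts on average over the 15 libraries, 7257 members took under 5%, 1418 took 10% or more and 97 took 50% or more. The counts were sparse for many, with 2558 members (25.4%) at 0 in at least 1 library. The summed count that chose the members could in principle be met by 1 group alone. In fact 9310 members (92.5%) had 10 or more counts in every group, and of the members with 90% or more of their counts in a single group, 35 had them in Naive, 6 in Ag+Costim and 6 in Ag. At the edge of the count threshold, the 71 members with exactly 50 counts had a median share of 0.335%, and the 69 transcripts left out with 49 counts had 0.524%. At the edge of the gene threshold, 34 members in genes less than 5 counts above it had a median share of 9.42%, and 42 transcripts left out in genes up to 5 counts below it had 8.91%.

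The libraries held 4865952 to 25280667 estimated counts. The CD8 T cell markers Cd8a, Cd8b1, Cd3d, Cd3e, Cd3g and Trac summed to 3705 to 8032 CPM (counts scaled to the library total) in every library, and Cd4 stood at 0 to 4.52 CPM. Ag 3 stood apart from the other libraries. It had the lowest total, counts for 16.9% of its sequenced reads against 37.4 to 53.6% elsewhere, 2698 CPM over the olfactory receptor genes against 102 to 443 CPM, and 663 CPM over the erythroid markers Hbb-bs, Hba-a1 and Alas2 against 2.33 to 91.1 CPM. The lane table gives input amounts, without a unit, of 1.4 for Ag 2 and 1.8 for Ag 5 and of 7 to 10 for the other libraries. Ag 1 to 5 and Ag+Costim 1 to 3 were in lane 2, and Naive 1 to 5 and Ag+Costim 4 and 5 in lane 3, so that no lane held both Ag and Naive. No 2 libraries of a group agreed within sampling noise.

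All members together took a smaller share of their genes in Ag+Costim than in Naive, and the share in Ag ran across the range of both. The counts of all members, divided by the counts of the genes that hold them, made 13.8, 10.5, 10.02, 14.1 and 6.38% in Naive 1 to 5. They made 10.4, 5.32, 8.48, 9.96 and 4.34% in Ag 1 to 5, and 5.98, 5.79, 5.21, 4.52 and 5.10% in Ag+Costim 1 to 5. The group means were 10.9% ± 3.16 for Naive, 7.71% ± 2.75 for Ag and 5.32% ± 0.582 for Ag+Costim (SD, n = 5 each). Every Naive library lay above every Ag+Costim library, but Naive 5 (6.38%, 95% Wilson interval 6.36 to 6.40%) was close to Ag+Costim 1 (5.98%, 5.97 to 6.00%). Such intervals cover counting error only, since no molecular identifiers were used, and were far narrower than the spread between libraries. Ag 2 and Ag 5, of low input, lay within or below the Ag+Costim range, and Ag 1, Ag 3 and Ag 4 lay above it. Within lane 3 the share was 6.38 to 14.1% in Naive and 4.52 and 5.10% in Ag+Costim. Within lane 2 it was 4.34 to 10.4% in Ag and 5.21 to 5.98% in Ag+Costim, which overlap. The share rested on no few abundant members, since without the 20 members of highest count it was 9.41% for Naive, 6.53% for Ag and 4.38% for Ag+Costim. As a score over members it was given no test.

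Other properties of the libraries moved with the share. Malat1, a long noncoding RNA that stays in the nucleus, stood at 6205, 5083, 2264, 6195 and 1011 CPM in Naive 1 to 5, at 3687, 723, 760, 3282 and 405 CPM in Ag 1 to 5, and at 226 to 464 CPM in Ag+Costim. Naive 5, Ag 2 and Ag 5, the libraries with the lowest shares in their groups, were also those with the lowest Malat1 in their groups. The lane table's percent headed RiP, a term it does not spell out, was 44.4 to 62.7 in Naive and 69.3 to 74.3 in Ag+Costim, and 43.8, 72.3, 15.4, 55.0 and 78.3 in Ag 1 to 5. Markers of other blood cells also differed between libraries, but did not follow the share across all of them. The B cell markers Cd79a, Cd79b and Ms4a1 summed to 122, 286 and 135 CPM in Ag 1, Ag 3 and Ag 4, the Ag libraries with the highest shares. They summed to 14.7 and 17.9 CPM in Ag 2 and Ag 5, 18.6 to 27.8 CPM in Naive and 11.6 to 25.6 CPM in Ag+Costim. The myeloid markers Lyz2, Csf1r, Cd68 and Itgam summed to 171 CPM in Naive 5, which had the lowest Naive share, to 11.7 to 80.9 CPM in the other Naive libraries, 54.6 to 109 CPM in Ag and 73.5 to 134 CPM in Ag+Costim. The part of nuclear RNA, of other cells and of these library properties in the differences below was not tested. In bulk samples such as these, fewer cells with a retained intron and fewer such RNAs per cell cannot be told apart.

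**Figure D1:**
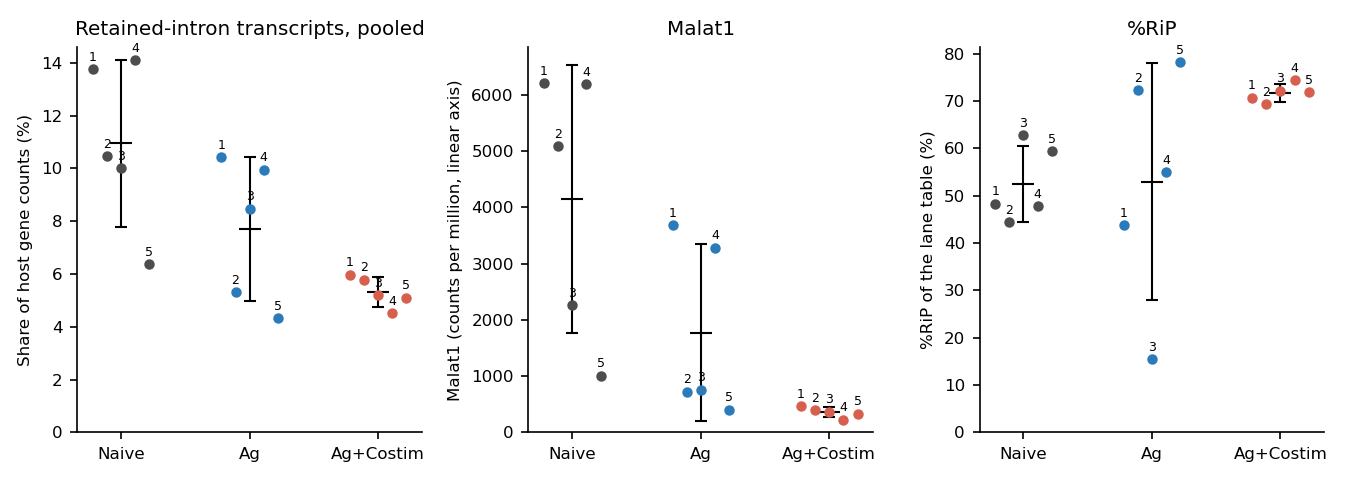
Share of host gene counts taken by all retained-intron members (percent, left), Malat1 (CPM, linear axis, middle) and the lane table's %RiP (right), each point 1 library with its replicate number, with the group mean and SD (n = 5). The 5 Ag+Costim libraries sit together between 4.52 and 5.98%, below every Naive library, while Ag libraries run from 4.34 to 10.4%.

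Between Ag+Costim and Naive, the shares of most members were lower in Ag+Costim and the groups often did not overlap. Of all 10063 members, 8595 had a lower and 1462 a higher mean share in Ag+Costim, with a median difference of -1.004 percentage points. Shares did not overlap for 2044 members that were lower and 58 that were higher. Transcripts with enough counts for the tests, in genes with more than 1 transcript, numbered 25932, of which 7109 were members, and 2954 members were not tested. Among tested members 1692 (23.8%) were lower in Ag+Costim without overlap, against a background of 9.83% of all tested transcripts, and 28 (0.394%) were higher, against 4.28%. Without Naive 5 the counts were 3098 lower and 61 higher, and the background of lower transcripts was 18.1%. Within lane 3, with 2 Ag+Costim libraries, 44.9% of members were lower without overlap against 20.5% of all tested transcripts.

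The share of single members was tested as the log2 odds, log2((member + 0.5)/(other counts of the gene + 0.5)), with limma across all 25932 transcripts. This test was chosen after the data were seen, because the planned edgeR diffSpliceDGE test called unchanged transcripts in simulated libraries. In those libraries each transcript was drawn independently of the others of its gene. They cannot show how either test behaves where transcripts share a gene's reads, as here. At a Benjamini-Hochberg adjusted p under 0.05 the log2 odds test called 32 of the 7109 tested members, all lower in Ag+Costim. It called 100 of all 25932 transcripts (0.386%), a similar share, and these were not split by direction. At an unadjusted p under 0.05 it gave 2733 members lower (38.4%) and 63 higher, against 17 and 8.55% of all transcripts. The median difference in log2 odds was -1.20 over members and -0.29 over all transcripts. The adjusted count rested on the libraries included. Without Naive 5 it was 1142 of 7586, 18 of them higher, and the calls over all transcripts rose too, to 2420 of 27648 (8.75%). It was 0 without Naive 1, Naive 2 or Naive 3, 1 without Naive 4, and 4, 3, 3, 2 and 3 without Ag+Costim 1 to 5 in turn. Without those libraries 0.0256 to 0.128% of all transcripts were called. With lane as a term the adjusted count was 3, against 0.0424% of all transcripts.

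The 32 members that fell span kinases, cell cycle genes, regulators of RNA and membrane traffic genes. Their mean share in Naive ran from 0.515 to 59.4%, their differences in log2 odds from -1.95 to -7.68, and 31 of 32 did not overlap between Ag+Costim and Naive. The mean share in Ag lay between those of the other groups for all 32, 12 spanned a whole coding intron and 20 part of one, and 4 were at 0 in at least 1 library. Besides the 12 described next, they were Dop1a-213, Numa1-203, Ipo7-203, Anxa7-208, Blmh-203, Ccny-203, Lman2l-208, Bfar-208, Copa-202, Nrd1-207, Ggct-206, Pds5a-206, 2700097O09Rik-203, Nrf1-217, Wdr44-203, Chchd4-202, Apool-203, Sec61a1-203, Mff-216 and Rpl13a-210. Copa-202, in the gene of a COPI coat subunit, was the one with overlap. Rpl13a belongs to a family with near-identical copies elsewhere in the genome, and its value is uncertain for that reason.

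Among members in signalling genes, Prkch-203 (chr12:73648921-73651897) lies in the gene of protein kinase C eta, which acts below the T cell receptor. It took 7.21, 4.32, 4.96, 7.61 and 4.05% of Prkch counts in Naive 1 to 5, 4.55, 1.83, 2.12, 4.19 and 1.45% in Ag 1 to 5, and 1.71, 1.49, 0.783, 0.665 and 0.907% in Ag+Costim 1 to 5. Every Ag+Costim library lay below every Naive library, and Ag overlapped both. The difference in log2 odds was -2.45 ± 0.45 (SE, limma adjusted p = 0.0408), while the gene's own counts differed by a log2 fold change of 0.04 ± 0.13 (edgeR adjusted p = 0.826). Chuk-207 (chr19:44081415-44107469), in the gene of the IKK-alpha kinase of NF-kB signalling, took 34.7, 28.5, 31.2, 36.2 and 16.8% in Naive and 13.2, 4.92, 7.43, 2.13 and 4.11% in Ag+Costim, with 20.6, 14.9, 12.6, 24.1 and 8.90% in Ag. Its groups of Naive and Ag+Costim did not overlap either, its log2 odds differed by -2.83 ± 0.54 (limma adjusted p = 0.0428), and the gene's counts differed by 0.02 ± 0.11. Il27ra-203 (chr8:84041769-84042540), in the gene of a subunit of the interleukin-27 receptor, took 5.64, 3.74, 2.28, 4.33 and 1.63% in Naive, 2.78, 1.13, 1.36, 1.72 and 0.764% in Ag, and 0.780, 0.589, 0.609, 0.496 and 0.510% in Ag+Costim. Naive and Ag+Costim were again apart (log2 odds -2.44 ± 0.45, limma adjusted p = 0.0408), and Il27ra counts as a whole fell too, by a log2 fold change of -1.05 ± 0.29 (edgeR adjusted p = 0.0143).

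Other members lie in genes that act in quiescence, chromatin and the cell cycle. Foxp1-211 (chr6:99161940-99266532) lies in the gene of a transcription factor that keeps T cells in a resting state. It took 21.9, 19.2, 9.97, 12.2 and 9.56% of Foxp1 counts in Naive and 11.0, 3.03, 4.25, 9.54 and 0% in Ag. In Ag+Costim it was at 0 counts in 4 libraries and at 9 counts (0.725%) in Ag+Costim 3. A count of 0 allowed a share of up to 0.298% in Ag+Costim 4. The Naive and Ag+Costim groups did not overlap (limma adjusted p = 0.0408), and the fitted size is left out because it depends on the added 0.5. Foxp1 as a whole fell by a log2 fold change of -2.21 ± 0.45 (edgeR adjusted p = 0.0047). Hdac5-216 (chr11:102195749-102218929), in the gene of a class IIa histone deacetylase, took 34.8, 42.7, 44.3, 41.6 and 28.4% in Naive, 53.8, 40.1, 12, 30.6 and 19.1% in Ag, and 3.93, 9.03, 1.08, 0 and 3.08% in Ag+Costim. Ag ran across the range of Naive and below it, and Ag+Costim lay below every Naive library (limma adjusted p = 0.0408), while Hdac5 as a whole fell by -0.72 ± 0.24 (edgeR adjusted p = 0.0306). Ccnd3-216 (chr17:47505241-47507910), in the gene of cyclin D3, was a rare product, at 1.77, 0.943, 1.40, 2.46 and 0.893% in Naive, 1.84, 0.0321, 0.414, 1.45 and 0.198% in Ag, and 0.0310, 0.0954, 0.0673, 0.0244 and 0.0286% in Ag+Costim, the last from 2 to 5 counts a library. Its log2 odds differed by -4.81 ± 0.88 (limma adjusted p = 0.0408), while Ccnd3 as a whole rose by a log2 fold change of 0.55 ± 0.20 (edgeR adjusted p = 0.0413).

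Members in genes of RNA regulation included Cnot3-208 (chr7:3645268-3649600), in the gene of a subunit of the CCR4-NOT deadenylase. It took 25.8, 25.6, 15.7, 27.2 and 19.4% of Cnot3 counts in Naive, 20.3, 13.0, 14.3, 22.9 and 10.8% in Ag, and 7.14, 8.94, 5.16, 5.69 and 5.46% in Ag+Costim. Ag+Costim lay below all libraries of both other groups (log2 odds against Naive -2.08 ± 0.38, limma adjusted p = 0.0408), and Cnot3 counts as a whole differed from Naive by a log2 fold change of 0.02 ± 0.13. Tnrc6a-208 (chr7:123179921-123193730), in the gene of a GW182 protein of microRNA silencing, took 13.3, 21.4, 17.6, 1.25 and 20.3% in Naive and 0.372, 0, 12.7, 0.584 and 0% in Ag. It had 0 counts in all 5 Ag+Costim libraries, which allows shares of up to 0.520 to 0.713% in a library, so that Naive 4 (1.25%, Wilson interval 0.793 to 1.97%) was the only Naive library near that limit (limma adjusted p = 0.0408). Tnrc6a as a whole fell by a log2 fold change of -1.24 ± 0.27 (edgeR adjusted p = 0.00646). Top3b-217 (chr16:16870786-16885465), in the gene of a topoisomerase that also acts on RNA, took 29.1, 28.0, 16.7, 24.3 and 11.8% in Naive, 15.9, 14.9, 22.3, 13.8 and 9.78% in Ag, and 6.27, 7.29, 4.38, 3.41 and 4.82% in Ag+Costim. Ag+Costim was again below every library of both other groups (log2 odds against Naive -2.31 ± 0.42, limma adjusted p = 0.0408), and Top3b as a whole fell by -0.39 ± 0.14 (edgeR adjusted p = 0.0435).

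The remaining 3 lie in genes of the secretory pathway or of less certain function. Colgalt1-203 (chr8:71620683-71624906), in the gene of a collagen galactosyltransferase of the endoplasmic reticulum, took 32.8, 21.2, 23.1, 23.7 and 16.3% of Colgalt1 counts in Naive, 8.63, 6.98, 7.47, 7.57 and 2.25% in Ag, and 3.66, 4.91, 4.42, 4.09 and 2.02% in Ag+Costim. Both Ag and Ag+Costim lay below every Naive library, and the adjusted p against Naive was the lowest among members (log2 odds -2.94 ± 0.45, limma adjusted p = 0.0231). Colgalt1 as a whole fell by a log2 fold change of -0.46 ± 0.18 (edgeR adjusted p = 0.0493). Tmed1-203 (chr9:21507553-21510187), in the gene of a p24 protein of vesicle transport, was the main product of its gene in Naive, at 71.8, 75.7, 57.9, 41.6 and 50%. It took 31.0, 33.7, 27.8, 55.8 and 17.4% in Ag and 20.6, 14.7, 5.70, 6.52 and 17.6% in Ag+Costim. The gene had only 54 to 317 counts in a library, so that single values are imprecise (Ag 3, 27.8%, Wilson interval 17.6 to 40.9%). The Naive and Ag+Costim groups did not overlap (log2 odds -3.47 ± 0.60, limma adjusted p = 0.0408), while Tmed1 as a whole rose by 0.72 ± 0.24 (edgeR adjusted p = 0.027). Cdv3-206 (chr9:103361604-103364980) took 11.2, 10.7, 5.55, 12.1 and 6.33% in Naive, 8.89, 3.82, 5.39, 4.25 and 3.49% in Ag, and 1.87, 2.45, 1.905, 1.40 and 1.75% in Ag+Costim. Its log2 odds differed by -2.34 ± 0.40 (limma adjusted p = 0.0408), while Cdv3 as a whole rose by a log2 fold change of 1.04 ± 0.14 (edgeR adjusted p = 0.001).

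**Figure D2:**
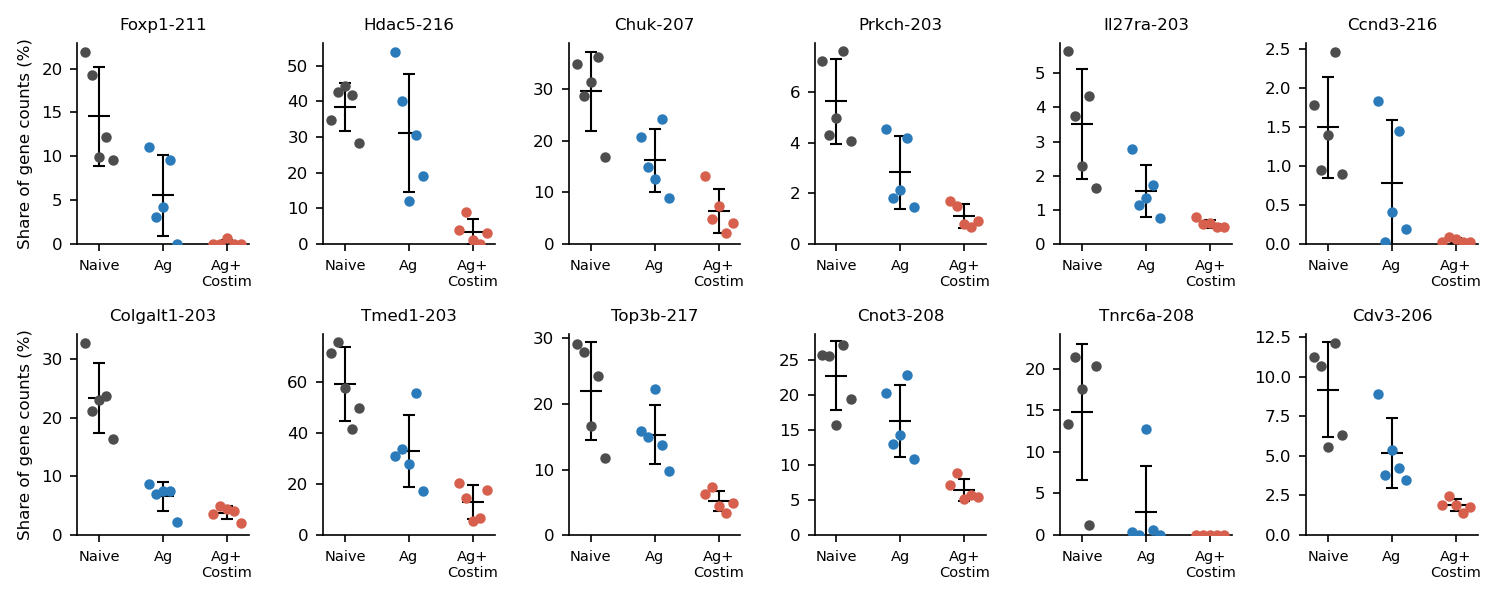
Share of gene counts (percent) of 12 of the 32 members whose log2 odds fell between Naive and Ag+Costim, chosen after their values were seen for the known roles of their genes; each point is 1 library, with the group mean and SD (n = 5), and SD bars stop at 0. In each panel the 5 Ag+Costim points lie below the 5 Naive points, and the Ag points spread between and across them.

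The level of the member itself, rather than its share, was tested with edgeR's quasi-likelihood test on all 35372 transcripts with enough counts, of which 7116 were members. In Ag+Costim against Naive 1420 members passed, 1370 lower and 50 higher in Ag+Costim, against 15.4% of all transcripts, 9.46% lower and 5.91% higher. The median log2 fold change was -1.14 over members and -0.13 over all transcripts. Of the 1370 members that fell, the host gene as a whole fell for 687, rose for 143 and did not pass for 540, and 1355 also had a lower mean share. The count of 1420 was 87, 463, 438, 118 and 2658 without Naive 1 to 5 in turn, and 302, 78, 61, 34 and 43 without Ag+Costim 1 to 5. Of the 32 members called by log2 odds, 31 also fell in level, and their genes rose for 8, fell for 9 and did not pass for 15. Of all 4960 genes that hold members, 1309 rose and 1257 fell, 51.7% in all, against 44.7% of all tested genes. The 2 directions were nearly even, and more genes fell than rose in several settings, among them RLE size factors (1278 rose, 1300 fell), the fit without Naive 1 (595 and 816 of 1411 genes) and that without Naive 4 (577 and 811 of 1388).

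Between Ag+Costim and Ag, which differ in the agonist antibodies given in place of the control antibody, shares were also lower for most members, but the Ag libraries were spread widely. Of all 10063 members, 8393 had a lower and 1661 a higher mean share in Ag+Costim, with a median difference of -0.649 percentage points. Among tested members 224 (3.15%) were lower without overlap, against 1.36% of all tested transcripts, and 12 (0.169%) were higher, against 0.852%. The number lower was 467 without Ag 2 (6.57%, against 3.07% of all transcripts) and 892 without Ag 5 (12.5%, against 4.92%). It was 270 without Ag 3 (3.80%, against 1.86%) and 305 with the libraries of lane 2 only (4.29%, against 2.28%). The number higher was 22, 19 and 21 without Ag+Costim 3, 4 and 5, and 26, 22, 26 and 25 without Ag 1, Ag 2, Ag 3 and Ag 5. These were 0.267 to 0.366% of members, against 1.11 to 2.56% of all transcripts. The log2 odds test called 0 members at an adjusted p under 0.05 (limma), against 3 (0.0116%) of all transcripts, and 1 or 7 without Ag 2 or Ag 5 and 1 without Ag+Costim 4. At an unadjusted p under 0.05 it gave 915 members lower (12.9%, against 6.31% of all transcripts) and 79 higher (against 4.2%). The levels of 0 members passed edgeR's test, as did 0% of all transcripts. Its unadjusted p was under 0.05 for 1582 of 7116 members, against 15.6% of all transcripts. DESeq2 called 297 of the 10063 members, against 1988 of all 106164 transcripts. Among the host genes 4 passed edgeR's test, 3 higher and 1 lower, against 0.0346% of all genes, 0.0288% higher and 0.00576% lower. The number of host genes was 637 without Ag 2, 786 without Ag 5 and 43 without Ag 3, each of 4960, and 0 or 1 without any other library of these groups. Over all genes it was 2679 of 18092 without Ag 2, 3573 of 18108 without Ag 5 and 115 of 17531 without Ag 3. The share of host genes was thus below that of all genes without Ag 2 or Ag 5, and above it without Ag 3.

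Between Ag and Naive, the mean share was lower in Ag for 6500 members and higher for 3559, with a median difference of -0.249 percentage points. Among tested members 57 (0.802%) were lower without overlap, close to the background of 0.775%, and 11 (0.155%) were higher, against 0.501%. The number lower was 436 without Naive 5 (6.13%, against 3.35% of all transcripts), 148, 121 and 135 without Ag 1, Ag 3 and Ag 4, and 86 and 94 without Naive 2 and Naive 3. Without both Ag 3 and Naive 5 it was 686. The number higher was between 17 and 27 without any one library other than Naive 3, without which it was 12. The log2 odds test called 0 members (limma), against 7 (0.027%) of all transcripts, and 5 without Naive 5, 3, 1, 2, 4 and 2 without Ag 1 to 5. At an unadjusted p under 0.05 it gave 785 members lower (against 6.64% of all transcripts, 11.0% of members) and 70 higher (against 3.79%). In level, 1 member passed edgeR's test, 5830411N06Rik-204, which fell by a log2 fold change of -4.47 ± 0.55 (edgeR adjusted p = 0.0205) together with its gene, while its mean share went from 57.3% in Naive to 87.0% in Ag, and 0.0424% of all transcripts passed, 0.0339% lower and 0.00848% higher. That count was 70 without Naive 5, 0 without Naive 1 or Naive 3, and 2 without Ag 2 or Ag 4. Among the host genes 483 passed, 175 higher and 308 lower, against 6.71% of all genes, 3.05% higher and 3.66% lower, and the number was 1446 without Naive 5, 841 without Ag 4, 745 without Ag 1, 301 and 173 without Ag 5 and Ag 2, and 107, 112 and 111 without Naive 1, 3 and 4. Without Ag 3 and Naive 5 together the balance turned, to 813 genes higher and 511 lower. Both comparisons above and the one with Naive share libraries, so their counts are not independent of each other.

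Other annotated classes of the tested transcripts are given beside the members. Lower in Ag+Costim than in Naive without overlap were 23.8% of members, against 15.1% for 1900 processed transcripts, 7.83% for 1546 transcripts annotated for nonsense-mediated decay and 2.74% for 14535 protein-coding transcripts. Higher without overlap were 6.83% of protein-coding transcripts and 0.394% of members. Shares of a gene add up to 100%, so a lower share of one class goes with a higher share of another by construction, and no test was made between the classes.

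**Figure D3:**
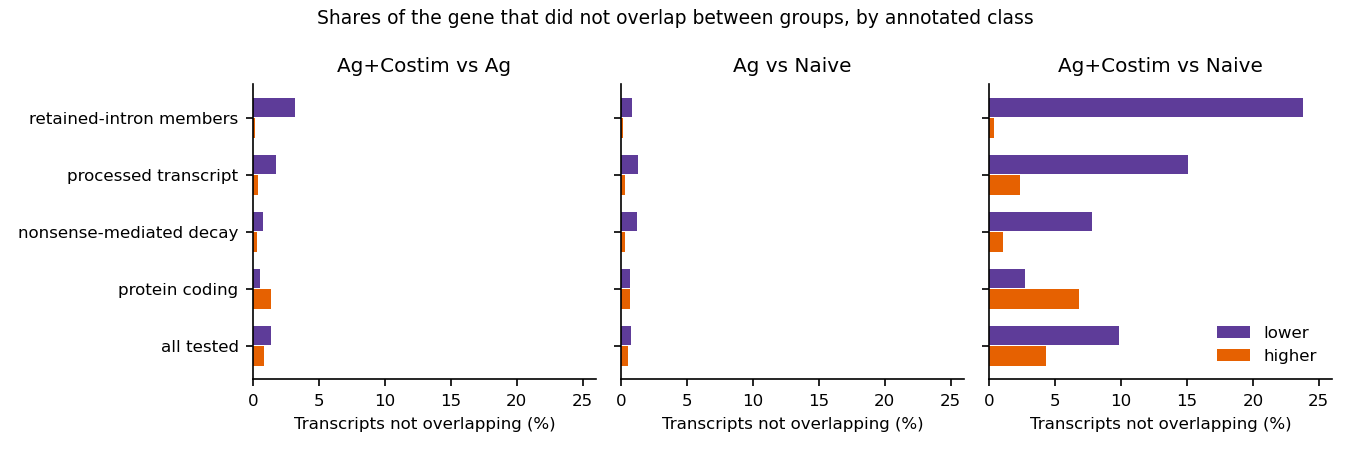
Percent of tested transcripts whose share of the gene was lower (purple) or higher (orange) in every library of the first group than in every library of the second, by annotated class, for the 3 comparisons. In Ag+Costim vs Naive the retained-intron members reach 23.8% lower and 0.394% higher, and in Ag vs Naive 0.802% of members are lower and 0.155% higher.

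Host genes were grouped by role, and the pooled share was highest where the host encodes an SR protein or its kinase or a part of the minor spliceosome. In SR protein and kinase genes (63 members in 19 genes) it was 26.3% ± 5.54 for Naive, 19.1% ± 7.33 for Ag and 14.1% ± 2.58 for Ag+Costim (SD, n = 5). In minor spliceosome genes (14 members in 7 genes) it was 25.8% ± 5.50, 16.2% ± 4.83 and 13.1% ± 2.35. In core spliceosome genes (105 members in 50 genes) it was 14.1% ± 4.20, 8.13% ± 4.53 and 4.50% ± 0.582. All 3 lists had every Naive library above every Ag+Costim library, with the nearest pair at 18.1 and 17.2% for the SR genes, 17.99 and 15.7% for the minor spliceosome and 8.08 and 5.09% for the core spliceosome. In hnRNP and related splicing regulators (123 members in 34 genes) the share was 10.4% ± 4.14, 6.41% ± 3.73 and 3.42% ± 0.905, and Naive 5 (4.73%) lay below Ag+Costim 1 (4.81%). In genes of nuclear retention and decay (38 members in 17 genes) it was 8.59% ± 2.38, 6.06% ± 1.96 and 4.71% ± 1.53, in factors of nonsense-mediated decay (17 members in 7 genes) 10.9% ± 2.97, 8.98% ± 5.21 and 4.98% ± 1.60, and in T cell genes (140 members in 63 genes) 11.5% ± 3.49, 6.97% ± 3.39 and 5.56% ± 0.855. In the nuclear and decay lists Ag+Costim 1 (7.37 and 7.46%) lay above Naive 5 (5.35 and 6.50%), and Ag 3 reached 16.9% for the decay factors. In the T cell list every Naive library also lay above every Ag+Costim library, with Naive 5 at 6.81% and Ag+Costim 1 at 6.74%.

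**Figure D4:**
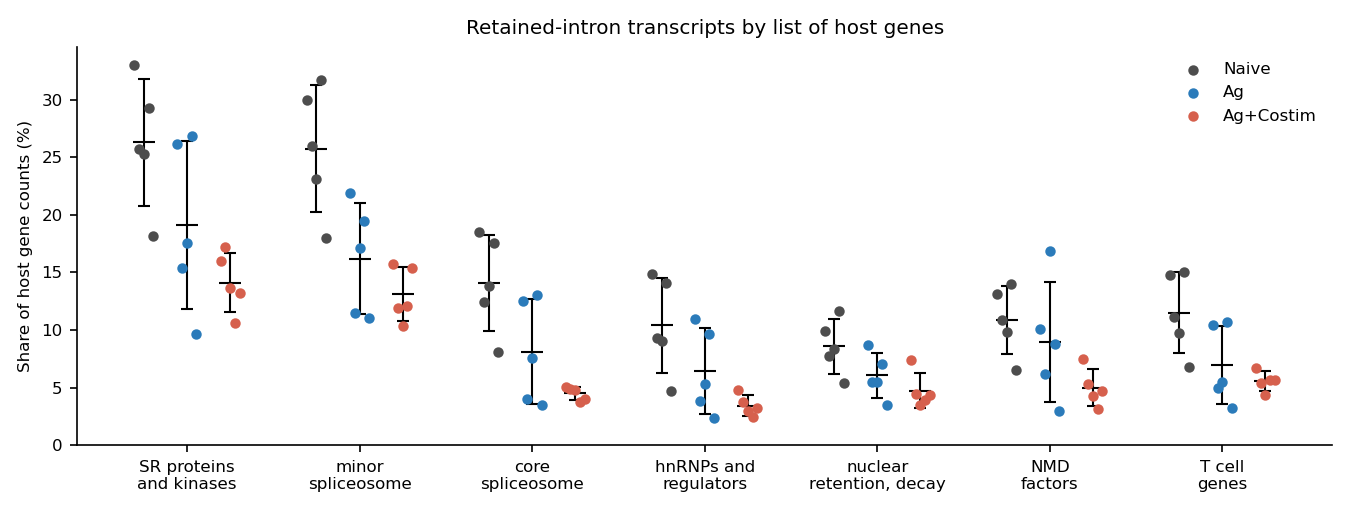
Pooled share of host gene counts (percent) taken by retained-intron members, for 7 lists of host genes, each point 1 library, with the group mean and SD (n = 5). SR protein and minor spliceosome hosts start highest, at 26.3 and 25.8% in Naive, and in every list the mean is highest in Naive and lowest in Ag+Costim.

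The members of each list were also counted. Between Ag+Costim and Naive the mean share was lower for 98 of 105 members in core spliceosome genes, 53 of 63 in SR genes, 12 of 14 in minor spliceosome genes, 111 of 123 in hnRNP genes, 38 of 38 in nuclear retention and decay genes, 17 of 17 in decay factors and 123 of 140 in T cell genes, against 85.4% of all members. Lower without overlap were 38, 12, 5, 32, 12, 4 and 45 of them in that order, or 36.2, 19.0, 35.7, 26.02, 31.6, 23.5 and 32.1%, against 20.3% of all members and 9.83% of all tested transcripts. A single member, in the hnRNP list, was higher. In level, 16 of 105, 14 of 63, 3 of 14, 26 of 123, 4 of 38, 2 of 17 and 42 of 140 members fell (edgeR). This stands against 19.3% of all tested members and 9.46% of all tested transcripts. The list sizes include any members that were not tested, and these percentages do not. In T cell genes 2 members rose. No test was made between the lists and the other members.

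The genes of these lists were also tested as a whole. Between Ag+Costim and Naive, 43 of 70 core spliceosome genes rose and 3 fell (edgeR), with a median log2 fold change of 0.57 against -0.08 over all genes, of which 21% rose and 23.6% fell. U2af1, the small subunit of the factor that binds acceptor sites, rose by a log2 fold change of 0.85 ± 0.18 (edgeR adjusted p = 0.00605), while Ddx23, a helicase of the U5 particle, fell by -0.94 ± 0.25 (0.0141) and Prpf38b by -0.63 ± 0.22 (0.0324). Of 22 SR genes 5 rose and 7 fell, Tra2b by 1.04 ± 0.15 (edgeR adjusted p = 0.00162) and Srsf6 by 0.70 ± 0.22 (0.0248) upwards, and Srsf5 by -1.003 ± 0.22 (0.00598) and the kinase gene Clk1 by -1.83 ± 0.41 (0.0073) downwards. Of 50 hnRNP and regulator genes 15 rose and 8 fell, among them Celf2 (0.40 ± 0.09), Hnrnpm (0.70 ± 0.16), Rbm39 (-0.86 ± 0.20) and Mbnl2 (-1.41 ± 0.35). Of 12 minor spliceosome genes 2 rose, Snrnp25 (1.26 ± 0.32) and Snrnp35 (0.87 ± 0.29), and 5 fell, among them Zrsr1 (-1.15 ± 0.26) and Snrnp48 (-1.09 ± 0.26). Of 20 tested nuclear retention and decay genes 6 rose, among them the exosome genes C1d (0.85 ± 0.22) and Exosc3 (0.94 ± 0.25), and 2 fell, Zfc3h1 (-0.999 ± 0.31) and Exosc5 (-0.40 ± 0.14). Of 16 nonsense-mediated decay genes 4 rose and 5 fell, among them Eif4a3 (0.85 ± 0.27), Magoh (0.92 ± 0.32), Casc3 (-0.50 ± 0.12) and the kinase gene Smg1 (-1.39 ± 0.36). Of 117 T cell genes 26 rose and 39 fell, among them the receptor genes Il2rb (1.19 ± 0.22) and Il7r (-2.82 ± 0.35). In Ag+Costim vs Ag 0 genes of these 7 lists passed edgeR's test. An unadjusted p under 0.05 was there for 29 core spliceosome, 1 minor spliceosome, 7 SR, 22 hnRNP, 8 nuclear, 3 decay and 24 T cell genes, against 26.8% of all tested genes, a share that the minor spliceosome, decay and T cell lists did not reach.

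The member with the highest mean count was followed in each of 38 genes known for retained introns or central to T cells, of which 34 held a member. Between Ag+Costim and Naive 32 of these had a lower mean share, 12 without overlap, 17 fell in level (edgeR), 0 passed diffSpliceDGE and 20 had a lower log2 odds at an unadjusted p under 0.05. None of the 34 passed the log2 odds test at an adjusted p under 0.05 (limma), the lowest being 0.0529 for Tra2a-203. Over all tested members the matching percentages were 23.8% lower without overlap, 19.3% lower in level and 38.4% lower in log2 odds, and over all tested transcripts 9.83, 9.46 and 17%. Tra2a-203 (chr6:49260243-49264030), in the gene of a splicing activator, took 56.3, 49.3, 48.1, 56.1 and 27.1% in Naive, 46.3, 31.1, 23.2, 43.1 and 11.9% in Ag, and 17.0, 15.6, 16.4, 9.07 and 15.7% in Ag+Costim. Its Naive and Ag+Costim values did not overlap, and the adjusted p of the log2 odds (limma) was 0.0529. Srsf6-204 (chr2:162931528-162935208) was very uneven in Naive, at 27.5, 9.56, 1.64, 16.5 and 0.966%, and 3.81, 0.318, 2.21, 2.97 and 0.381% in Ag, but even in Ag+Costim at 0.566, 0.705, 0.766, 0.363 and 0.661%. It fell in level by a log2 fold change of -3.15 ± 0.75 (edgeR adjusted p = 0.0249) while the gene rose. Srsf2-203 ran from 3.95 to 30.4% in Naive and 1.81 to 5.43% in Ag+Costim, and Srsf3-204 from 22.9 to 41.6% and 11.2 to 25.4%, so both overlapped through Naive 5.

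Members in T cell genes fell in level in several cases. Cd3e-202 (chr9:45003159-45009627), in the gene of the CD3 epsilon chain, took 13.7, 9.34, 6.55, 13.4 and 5.48% in Naive, 8.96, 4.71, 3.47, 7.65 and 2.17% in Ag, and 3.15, 3.52, 2.60, 2.22 and 3.19% in Ag+Costim. Naive and Ag+Costim did not overlap, and its level fell by a log2 fold change of -2.01 ± 0.49 (edgeR adjusted p = 0.0258). Lck-207, in the gene of the kinase that starts receptor signalling, took 1.06 to 5.17% in Naive, 0.426 to 2.55% in Ag and 0.394 to 0.727% in Ag+Costim (level -2.15 ± 0.58, edgeR adjusted p = 0.034). Il2rg-204, in the gene of the common gamma chain, took 1.73 to 6.20%, 0.554 to 2.77% and 0.513 to 1.00% (level -2.56 ± 0.52, edgeR adjusted p = 0.0196), and Fyb-203, in the gene of an adaptor of integrin activation, 4.60 to 22.7%, 0.948 to 12.04% and 1.56 to 3.49% (level -3.05 ± 0.74, edgeR adjusted p = 0.0264). All 3 were lower in every Ag+Costim than in every Naive library. The log2 odds of Lck-207, Il2rg-204, Fyb-203 and Cd3e-202 did not pass between these groups (limma adjusted p = 0.0667, 0.0562, 0.0890 and 0.0662). Cd8a-203, whose intron is shown above, took 30.7, 23.7, 19.4, 30.1 and 9.73% in Naive, 19.1, 9.998, 20.6, 25.1 and 7.23% in Ag, and 16.4, 10.3, 10.7, 8.09 and 10.1% in Ag+Costim. It overlapped through Naive 5, with a log2 odds difference of -1.17 ± 0.51 (limma adjusted p = 0.173) and a level that fell by -1.45 ± 0.43 (edgeR adjusted p = 0.0422).

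Other members overlapped in all 3 comparisons. Ptprc-201, in the gene of the phosphatase CD45, took 38.2% ± 5 among Naive, 40.1% ± 5.99 among Ag and 40.6% ± 11.0 among Ag+Costim libraries (SD, n = 5), with a difference in log2 odds between Ag+Costim and Naive of 0.13 ± 0.39. Clk1-204 took 23.4% ± 4.31, 14.6% ± 4.26 and 18.7% ± 4.44. Nfkb1-202, in the gene of the NF-kB subunit p105, ran from 0.386 to 42.2% in Naive, 0 to 49.7% in Ag and 6.10 to 27.8% in Ag+Costim, so that its spread within groups was wider than any difference between their means.

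The 10 members with the highest mean share were nearly the whole of their genes' counts. Slc26a10-204 and H2-Q1-203 took 100% of their genes in all 15 libraries, and Fam221b-202 took 100% in all but Ag 3 (99.5%). H2-Q1 belongs to the MHC class I genes, whose near-identical copies make the split of reads uncertain. Pkp3-205, Nckap1l-203, Atp11b-203, Qtrt2-209 and Trmt2b-205 had group means from 87.6 to 97.3%. Tmcc1-211 (chr6:116171617-116174313) took 84.7, 95.5, 90.9, 83.8 and 98.3% in Naive, 92.4, 99.8, 94.0, 93.7 and 99.8% in Ag, and 99.5, 99.5, 99.5, 99.7 and 99.6% in Ag+Costim, higher in every Ag+Costim than in every Naive library. Fam120b-202 (chr17:15396248-15433583) was higher too, at 90.3 to 95.2% in Naive and 96.7 to 98.4% in Ag+Costim (log2 odds 1.65 ± 0.42, limma adjusted p = 0.0624).

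The lower share in Ag+Costim was found in every class of intron length, with the largest ratio for the longest. Members spanning introns of 50 to under 100 bases took 6.40% ± 1.41 of their genes in Naive and 3.83% ± 0.510 in Ag+Costim (SD, n = 5), a ratio of the means of 1.67. The ratio was 1.80 from 100 to under 200 bases, 1.87 from 200 to under 500, 2.095 from 500 to under 1000, and 2.21 from 1000 bases, where the share was 12.9% ± 3.60 and 5.87% ± 0.786. Members lower without overlap made up 11.6% of the shortest and 30.8% of the longest class. By GC content the same percentage was 27.2% under 40% GC, 23.3% from 40 to under 50%, 15.9% from 50 to under 60% and 11.5% from 60%. The matching percentages were 19.8% of all members spanning a whole intron, 20.3% of all members and 9.83% of all tested transcripts. The shortest class and that of highest GC were thus close to the value of all transcripts. Long introns and introns of low GC were not separated from each other or from read depth here. By position in the coding transcript the percentage without overlap was 25.1% for first, 19.2% for inner and 19.6% for last introns. The ratio was lowest for first introns, at 1.78, 2.02 and 1.97 in that order. The 39 introns that open with ATATCC or GTATCC took 10.5% ± 1.76 in Naive and 6.18% ± 0.364 in Ag+Costim, and the other whole introns 12.01% ± 3.22 and 6.07% ± 0.703. Their ratios were 1.70 and 1.98, and 28.2 and 19.7% were lower without overlap. By size of the share, the ratio of Naive to Ag+Costim was 2.50 for members under 1% on average, 1.95 from 5 to under 20% and 1.04 from 50%.

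**Figure D5:**
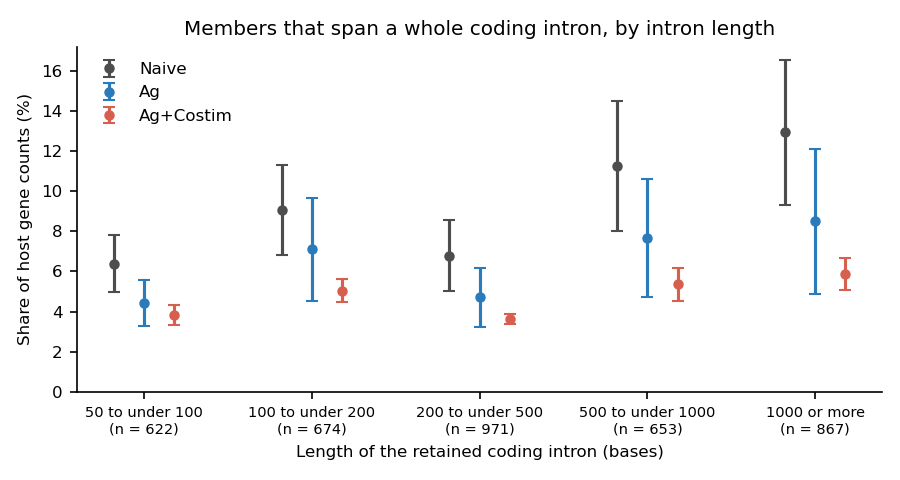
Share of host gene counts (percent) of members that span a whole coding intron, by the length of that intron in bases (n is the number of members), as mean and SD over the 5 libraries of each group. Naive is highest and Ag+Costim lowest in every length class, with means of 6.40 and 3.83% for introns of 50 to under 100 bases and 12.9 and 5.87% for those of 1000 bases or more.

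The planned test, edgeR diffSpliceDGE, gave a largely different set of members, many of them at 0 counts in some libraries. It called 30 members between Ag+Costim and Naive (1 higher and 29 lower, against 0.297 and 0.513% of all transcripts, 0.81% in all), 15 between Ag+Costim and Ag (3 higher and 12 lower, against 0.251 and 0.305%, 0.555% in all) and 3 between Ag and Naive (1 higher and 2 lower, against 0.235 and 0.255%, 0.49% in all). At least 1 library was at 0 counts for 22 of the 30, 11 of the 15 and 3 of the 3. Both tests called 3 members between Ag+Costim and Naive, Dop1a-213, Foxp1-211 and Tnrc6a-208. In the simulated libraries each transcript was drawn independently of the others of its gene. There diffSpliceDGE called 40 of 23485 transcripts unchanged between Ag and Naive, against 0 for the log2 odds test. With 50 transcripts changed by each fold between Ag+Costim and Naive, diffSpliceDGE found 10% of those changed 16-fold, against 26%. Its counts by library left out ran from 11 to 79 for Ag+Costim vs Naive, where it was 14, 18, 11 and 79 without Naive 1, 2, 4 and 5 and 17, 18, 15 and 19 without Ag+Costim 2 to 5. For Ag+Costim vs Ag it was 42 and 55 without Ag 2 and Ag 5 and 9 and 7 without Ag+Costim 2 and 3. For Ag vs Naive it was 11, 6, 15, 17 and 8 without Ag 1 to 5, and 1 and 10 without Naive 4 and Naive 5.

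The members it named show that pattern. Sfi1-216 (chr11:3131887-3193439), in the gene of a centrosome protein, took 13.5, 51.9, 61.2, 21.2 and 40% in Ag+Costim, 0.945, 0, 0, 0 and 0% in Ag, and 0, 1.93, 27.4, 0 and 11.0% in Naive. It did not overlap between Ag+Costim and Ag (diffSpliceDGE adjusted p = 0.0212, limma adjusted p = 0.229), and its gene had 60 to 529 counts in Ag and 104 to 165 in Ag+Costim. Lin9-209, in the gene of a cell cycle regulator, took 1.28 to 49.5% in Ag and 0.137 to 1.00% in Ag+Costim, without overlap (diffSpliceDGE adjusted p = 0.00283, limma adjusted p = 0.329). Cnot3-205 took 1.16, 73.0, 0, 0 and 62.7% in Ag and 4.23, 0, 1.91, 51.8 and 65.4% in Naive, and was at 0 in all Ag+Costim libraries but Ag+Costim 3 (1.52%). Man2a2-202, in the gene of a Golgi mannosidase, took 75.5, 0, 69.5, 77.2 and 60.04% in Naive and 66.7% in Ag 4 alone among Ag libraries. Gtf3c2-211, in the gene of a subunit of transcription factor IIIC, was steadier, at 3.13 to 5.04% in Naive and at 0 in all Ag+Costim libraries but Ag+Costim 1 (1.17%), without overlap (diffSpliceDGE adjusted p = 0.0104, limma adjusted p = 0.0562). Drap1-206, in the gene of a repressor of transcription, took 4.72 to 29.6% in Naive, and 1.69% in Ag+Costim 1 alone among Ag+Costim libraries. Zfp276-207 was the member called higher in Ag+Costim than in Naive, at 68.3, 4.41, 66.8, 10.1 and 36.1% against 0.683 to 4.17%. Between Ag and Naive, Wdr75-207 took 0.656 to 12.3% in Naive and 0.439, 0, 0, 0 and 0% in Ag (diffSpliceDGE adjusted p = 0.00303), and Unc93b1-201 took 3.41 to 53.7% in Ag against 0 to 2.05% in Naive (diffSpliceDGE adjusted p = 0.0388). Timm17a-204, also called lower, was at 0 in all 5 Ag libraries and in Naive 3. Among the calls between Ag+Costim and Ag were also Atp13a2-206, Hps3-205, Telo2-209, C2cd3-207, Zswim8-210, Fxr1-209 and Rab3gap1-204, all lower in Ag+Costim, and only Rab3gap1-204 of these 7 did not overlap. Among those between Ag+Costim and Naive were also C2cd2-210, Lrwd1-203, Camk2d-207 and Eif2a-204, all lower in Ag+Costim, of which Camk2d-207 and Eif2a-204 did not overlap.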

How the data were processed

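RNA was extracted from 15 CD8+ T cell samples with a QIAGEN miRNeasy kit and made into libraries with SMART-Seq v4 and Nextera XT, which do not mark strand, so that reads of overlapping or antisense genes cannot be told apart. The labels and the lane table give single 50-base reads, and the study's methods state other lengths. The authors deposited estimated counts per transcript and gene, made with StringTie, and per the submitters' processing notes used HISAT2 2.1.0, SAMtools 1.9, StringTie 2.1.0, R 4.0.5, DESeq2 1.30.1 and mm10. The annotation release is not given in the sources used here. The authors also deposited a lane table with a count of total reads, percent aligned, percent RiP, input and other sample details. A deposited table of FPKM values was not used.

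Of 168207 transcript entries 141862 matched GENCODE M21 by identifier and version, as did 55536 of 81881 gene entries, whose counts all equal the sum of their transcripts. Unmatched entries held 0.0818% of counts. No per-sample column was left without a sample. Libraries held 4865952 to 25280667 counts, and these depths limit what a share near 0 can show: a count of 0 was read as allowing up to 3 counts. Expected counts were whole numbers or rounded to them. Between 2 libraries of a group, chi-square per degree of freedom was 5.62 or more.

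Members and gene lists were chosen with earlier results of these data known. Shares were computed per library. Usage was tested with edgeR diffSpliceDGE, levels and gene counts with edgeR's quasi-likelihood test (filterByExpr, TMM), all over all features and 3 groups of 5 libraries with Benjamini-Hochberg adjustment at 0.05. The limma test of log2 odds and the sum of 3 B cell markers were added after the data were seen. The tests were run on simulated data for Ag+Costim vs Naive with 50 features changed by each fold. Features were drawn independently, so that transcripts of a gene shared no reads there. Of 4-fold and 16-fold changes, the level test over 32812 transcripts recovered 32 and 74%, the gene test over 16992 genes 80 and 98%, and the log2 odds test over 23485 transcripts 0 and 26%. Named members were up to 10 calls with the largest rise and 10 with the largest fall in mean share in each comparison, with a mean gene count of 100 in both groups. Where fewer than 10 passed, the lowest unadjusted p values filled the rest, and the text leaves those out. Further ones were the 10 of highest mean share, and for each gene of a fixed list its member of highest count. The 12 members plotted and described from the log2 odds test were chosen after their values were seen. Lists name the 2 genes of lowest adjusted p in each direction, apart from a gene that is not reported here. Alternatives were other normalizations, filters and tools, lane, replicate number and each library left out. R 4.3.3, edgeR 4.0.16, limma 3.58.1, DESeq2 1.42.0, Python 3.11.15, pandas 2.3.3, NumPy 2.4.6 and SciPy 1.17.1 were used.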

Additional observations from a re-analysis of the deposited data

Results flagged for a closer look

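In 42 of 342 groups of 5 libraries examined (12.3%), the highest or lowest library lay far from the other 4 by Dixon's 95% limit, which chance passes in about 1 group in 20. They are given as values only, as the share of the gene in percent, and each was the highest or lowest of its group.

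Ag+Costim 1 held 9 of them, among them the pooled share of members in nuclear retention and decay genes (7.37%). The others were Atp13a2-206 (6.38%), Zswim8-210 (0.435%), Gtf3c2-211 (1.17%), Rbm39-211 (0.781%), Drap1-206 (1.69%), Nckap1l-203 (95.8%), Carmil2-201 (5.43%) and Sec61a1-203 (0.284%). Ag+Costim 2 held Man2a2-202 (2.60%). Ag+Costim 3 held Cnot3-205 (1.52%), Timm17a-204 (4.37%), C2cd2-210 (1.49%), Foxp1-211 (0.725%) and Atp11b-203 (94.0%). Ag+Costim 4 held Wdr75-207 (14.5%), Tra2a-203 (9.07%) and Zap70-204 (0.163%), and Ag+Costim 5 held Hps3-205 (1.48%), C2cd3-207 (0.414%) and Dop1a-213 (0.257%).

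Among Ag libraries, Ag 1 held Sfi1-216 (0.945%), Wdr75-207 (0.439%), Unc93b1-201 (53.7%) and Ptbp1-213 (1.69%). Ag 3, the shallowest library, held Rab3gap1-204 (15.1%), Rbm39-211 (6.79%), Tnrc6a-208 (12.7%), Fam221b-202 (99.5%) and Wdr44-203 (10.2%). Ag 4 held Cers6-205 (2.14%), Man2a2-202 (66.7%) and Dop1a-213 (6.96%), and Ag 5 held Telo2-209 (71.2%), Iqce-207 (61.1%), Clk4-213 (8.45%) and Colgalt1-203 (2.25%). Among Naive libraries, Naive 2 held Iqce-207 (3.93%) and Man2a2-202 (0%), and Naive 5 held Srsf5-212 (39.7%), Tra2a-203 (27.1%) and Luc7l2-203 (7.60%).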

How the results depend on the processing

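No named diffSpliceDGE call changed sign in 511 alternatives, but the balance of higher and lower calls turned for host genes in Ag vs Naive without Ag 3 and Naive 5 together (175 and 308, then 813 and 511), for host genes in Ag+Costim vs Naive with RLE size factors (1278 and 1300), DESeq2 (1340 and 1356) and without each of Naive 1 to 4 and Ag+Costim 1, 2 and 5 in turn, and for diffSpliceDGE members in Ag+Costim vs Ag with limma diffSplice (3 and 12, then 4 and 3) and in Ag vs Naive without the filter (1 and 2, then 16 and 15) and with lane as a term (2 and 1). The number of members past diffSpliceDGE was 15 for Ag+Costim vs Ag, 46 without the filter, 7 with limma diffSplice, 0 with the log2 odds test, 4 with lane as a term, 5 within a lane and 0 with the 10 compared libraries alone, and 7 to 55 with 1 library left out. For Ag vs Naive it was 3, and 31, 44 and 0 without the filter, with limma diffSplice and with log2 odds, 0 with the 10 libraries, 17 without Ag 3 and Naive 5 together, and 1 to 17 with 1 library left out. For Ag+Costim vs Naive it was 30, and 67 without the filter, 609 with limma diffSplice, 2 with lane as a term, 365 with the 10 libraries, 164 without Ag 3 and Naive 5, and 11 to 79 with 1 library left out. The number past the level test was 0, 1 and 1420 in that order and 297, 235 and 2535 with DESeq2. For Ag vs Naive it was 88 without Ag 3 and Naive 5 and 0 to 70 with 1 library left out, and for Ag+Costim vs Naive 3 without the filter, 2644 without both libraries and 34 to 2658 with 1 left out. Host genes numbered 4, 483 and 2566, and 2, 71 and 1265 without the filter. For the first 2 they were 651 and 1029 with DESeq2, 341 and 1324 without both libraries, and 0 to 786 and 107 to 1446 with 1 left out, and for the third 1388 to 2942. The pooled share was 6.55% in Naive and 4.06% in Ag+Costim as a mean over members, and in Ag+Costim 6.18% per length and 6.37% for members with 200 or more counts. The named diffSpliceDGE calls held in 227 of 511 alternatives. The log2 odds test with its own alternatives, and leaving out both libraries, were chosen after the data were seen. The cause of these differences was not tested. No lane held both Ag and Naive, so that comparison was not run within a lane.

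Replicate numbers are shared between groups, but the labels do not say that a number marks an animal or day, and not every pair correlated above 0.1. In gene levels the deviations of same-numbered libraries did so for 6 of 15 pairs (-0.344 to 0.568), and the library correlated best with its own number for 3 of 15. In member shares 2 of 15 pairs did (-0.0868 to 0.253), and 7 of 15 correlated best with their own number. The recorded sex of the mice follows the number in every group (1, 2 and 5 female, 3 and 4 male), and no fit with sex as a term was run. With the replicate block, diffSpliceDGE called 3, 3 and 26 members for Ag+Costim vs Ag, Ag vs Naive and Ag+Costim vs Naive, the log2 odds test 0, 0 and 1, the level test 0, 0 and 1117, and the number of host genes was 0 and 688 in the first 2 comparisons.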
